A study of Homo sapiens with 13 samples.

Results

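Dual-colour cDNA arrays compared the responses of KMS12 myeloma cells to a pair of inducible hairpins against IRF4, called 1332b and 2046 in the labels, at the same 3 times: uninduced (day 0) and after 2 and 4 days of doxycycline. The comparison was chosen by cell line, hairpin and day, and takes 6 of the 13 arrays of the series: 3 of series 1332b and 3 of series 2046, with 1 array at each day. KMS12 is an established human line of multiple myeloma, a cancer of plasma cells. On every array, RNA of KMS12 cells with the IRF4 hairpin was labelled with Cy5 and RNA of KMS12 cells with a control hairpin against luciferase (shluc) was labelled with Cy3. The luciferase culture was taken at the same day as the IRF4 hairpin culture. Cultures of days 2 and 4 received doxycycline at 20 ng/ml, which switches the hairpin on, and the control cells of those days carry the luciferase hairpin under the same treatment. A log2 ratio below 0 therefore stands for an mRNA that was scarcer with the IRF4 hairpin than with the luciferase hairpin. No array had its dyes swapped, so a gene's own dye bias stays in each ratio and cancels when the day 0 array is subtracted. Whether the days of a series were grown as separate cultures is not stated in the labels, so p-values speak only of the scatter among these arrays, which may be technical. They also do not give the hairpin sequences, or say whether 1332b is the same hairpin as the one named 1332.

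IRF4 is a transcription factor of the interferon regulatory factor family that B cells need to become plasma cells and that myeloma cells need to live. A short hairpin RNA is cut by the cell into a small interfering RNA that guides the breakdown of the mRNA it matches. Such a guide can also lower other mRNAs that it matches in part, and hairpins of different sequence share the intended target but not, as a rule, these other mRNAs. The question behind the comparison is which mRNA differences appear with both hairpins and which with 1 hairpin alone.

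Ratios were available for 14228 features on the 1332b day 0 array, 11584 at day 2 and 13216 at day 4. For series 2046 the numbers were 11304, 10310 and 12161. The 7009 features measured on all 6 arrays gave 4982 genes or unnamed features, of which 3027 carried a gene name, and differences are log2 values of an induced array minus the day 0 array of its own series. The spread of the ratios over these genes (SD, log2) was 0.26, 0.75 and 0.42 at days 0, 2 and 4 in series 1332b, and 0.45, 0.53 and 0.40 in series 2046. The uninduced 2046 array stood apart by its own spread: features measured on all 13 arrays of the series had a median ratio of 0.26 there and features measured on 6 to 9 arrays a median of -0.43. The same medians on the uninduced 1332b array were 0.02 and 0.01. Every 2046 difference subtracts that array, so the ratios of all 3 arrays are given for most of the genes described below, and a 2046 difference given alone includes the uninduced value.

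IRF4 mRNA itself was lower on all 4 induced arrays. With hairpin 1332b its log2 ratio was 0.12 uninduced, -1.79 at day 2 and -0.68 at day 4. With hairpin 2046 it was 0.25 uninduced, -1.02 at day 2 and -0.73 at day 4. The 4 induced arrays did not overlap with the 2 uninduced ones. As a share of the control culture, IRF4 stood at 29.0% and 62.6% on days 2 and 4 of 1332b and at 49.2% and 60.2% on days 2 and 4 of 2046. The difference from day 0 was -1.90 with 1332b and -1.27 with 2046 at day 2, and -0.79 and -0.98 at day 4, so 1332b gave the lower value at day 2 and 2046 at day 4. Both IRF4 features measured on all 6 arrays, of 4 on the array, had the same direction in every difference. Over both hairpins and both days the mean difference was -1.24 (SE 0.27), with an unadjusted p = 0.00258 and an adjusted p = 0.698 from limma with Benjamini-Hochberg adjustment over 4982 genes. An exact permutation test of the 4 induced against the 2 uninduced arrays gave a two-sided p = 0.133 as the one-sided value doubled, and 0.0667 by the size of the difference alone, which is the smallest share that 15 possible assignments allow. These assignments ran over all 6 arrays and, unlike the limma fit, did not keep the series as a block. Leaving out 1 array at a time gave a mean difference of -1.42 to -1.05.

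**Figure D1:**
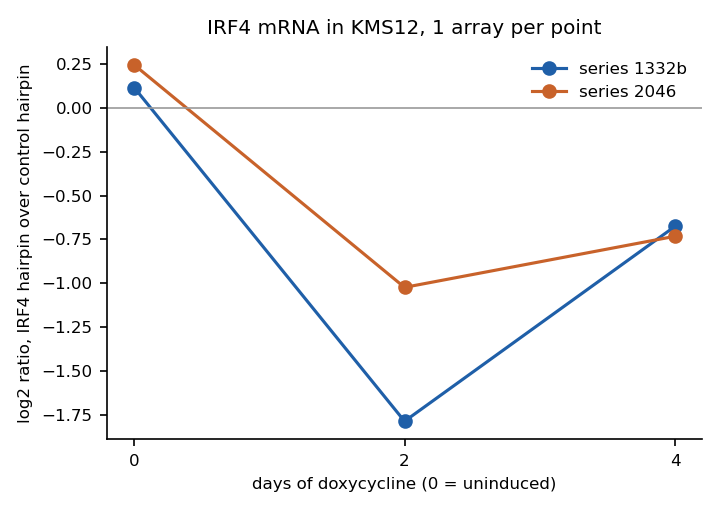
The plot of IRF4 by day shows the log2 ratio of IRF4 mRNA, IRF4 hairpin over control hairpin, against days of doxycycline, with 1 array per point and 1 line per series. Both lines start above 0 (0.12 and 0.25), are lowest at day 2 (-1.79 with 1332b and -1.02 with 2046) and lie close together at day 4 (-0.68 and -0.73).

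No single gene passed the test across all genes, so what follows describes sizes and directions. In the limma fit with the series as a block, 0 of 4982 genes had an adjusted p under 0.05 (0% called) for days 2 and 4 against day 0 over both hairpins, with 336 at an unadjusted p under 0.05 and a smallest adjusted p of 0.698. For day 2 alone the calls were 0 as well, with 676 at an unadjusted p under 0.05 and a smallest adjusted p of 0.349. For day 4 alone they were 0, with 165 and 0.997. For the difference between the hairpins they were 0, with 32 of 4982 at an unadjusted p under 0.05 and a smallest adjusted p of 1. These counts rest on single arrays. Leaving out the 2046 day 2 array gave 224 calls over both days and 615 at day 2, and leaving out the 1332b day 2 array gave 63 and 122. Leaving out the 1332b day 0 array gave 1 and 1. At day 4 there were 2 calls without the 1332b day 2, the 1332b day 4 or the 2046 day 2 array, and the difference between hairpins had 5 calls without the 2046 day 4 array. In each case 1 day of 1 series is then read from the other arrays alone, and the lone array is assumed to vary like the rest.

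At day 2 a common group of mRNAs was 2-fold or more lower with both hairpins. Of the 4982 genes, 621 (12.5%) were 2-fold or more lower with 1332b and 188 (3.77%) with 2046, and 95 (1.91%) with both. These 95 were 15.3% of the 1332b list and 50.5% of the 2046 list. Among the 621 genes lower with 1332b, 497 (80.0%) lay below 0 with 2046, against 53.8% of all genes, with a median of -0.54. Among the 188 lower with 2046, 160 (85.1%) lay below 0 with 1332b, against 48.7% of all genes, with a median of -1.01. Across all 4982 genes the day 2 differences of the hairpins, which share no array, had a Pearson r of 0.31 and a Spearman rho of 0.37; genes are not independent replicates. The ratios themselves had an r of 0.33 and a rho of 0.49 at day 2, and 0.07 and 0.09 on the uninduced arrays. By contrast, 18 genes were 2-fold lower with 1332b and 2-fold higher with 2046, and 3 the reverse.

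The 95 genes below both 2-fold limits at day 2 included 63 named ones, from the cytosolic chaperone HSP90AA1 to the cell cycle regulator CCNC. HSP90AA1, a chaperone of many signalling proteins, had ratios of -0.11, -2.85 and 0.17 at days 0, 2 and 4 of 1332b and of 1.44, -0.47 and -0.46 with 2046. Its day 2 differences were -2.74 and -1.90. IDI1, an enzyme that makes the building blocks of sterols, had ratios of -0.31, -2.30 and 0.04 with 1332b and of 0.99, -0.69 and -0.70 with 2046. TMEM123, which encodes a membrane protein, stood at 0.23, -2.34 and 0.41 with 1332b and at 1.28, -0.47 and -0.14 with 2046. These 3 mRNAs were low on the day 2 array of 1332b and back near the control at day 4, whereas with 2046 both induced arrays were modestly below 0 and the uninduced array was high. CCNC, cyclin C of the Mediator complex, was -0.10, -2.12 and -0.57 with 1332b and 0.69, -0.86 and -0.47 with 2046. ME2, the mitochondrial malic enzyme, had day 2 differences of -1.75 and -1.47, and BMI1, a Polycomb protein, of -2.12 and -1.43. CLTC, the clathrin heavy chain, was named for its small p in the day 2 fit. Its ratios were -0.24, -1.60 and -0.32 with 1332b and 0.00, -2.0 and -0.21 with 2046, a mean difference of -1.68 (SE 0.30) with a limma adjusted p = 0.349. All 4 CLTC features were lower at day 2 with 1332b and 3 of 4 with 2046.

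The shared lower set had low induced ratios with 1332b and high uninduced ratios with 2046. Over the 95 genes the median ratio was -0.03 uninduced and -1.81 at day 2 with 1332b, and 92 of the day 2 ratios were themselves 2-fold or more below the control. With 2046 the median ratio was 0.78 uninduced and -0.41 at day 2. Of the 2046 day 2 ratios 93 of 95 lay below 0, but 9 were themselves 2-fold or more below the control. At day 4, in differences that share the day 0 arrays with those of day 2, the same 95 genes had a median of 0.17 with 1332b and of -1.04 with 2046. The gene nearest inside the limit was IL18RAP, at -1.26 and -1.001, and the nearest outside was PPP1R2, at -2.05 and -0.9998. Without centring each array on its median, the day 2 differences of all genes would move by -0.15 with 1332b and by -0.28 with 2046, to medians of -0.13 and -0.32. Of the genes past 2-fold with both hairpins at day 2, 81.2% were lower (95 lower, 22 higher), against 95.4% without centring (250 and 12) and 76.8% with centring by how often a feature was measured (76 and 23).

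Fewer mRNAs were 2-fold or more higher with both hairpins at day 2. There were 94 genes (1.89%) 2-fold or more higher with 1332b, 308 (6.18%) with 2046 and 22 (0.442%) with both, which is 23.4% of the 1332b list and 7.14% of the 2046 list. All 22 had ratios above 0 on both day 2 arrays, with medians of 0.98 and 1.14. SPON2, a secreted matrix protein, had ratios of -0.40, 0.80 and -0.05 with 1332b and of -0.74, 1.64 and 0.65 with 2046. CXCL9, a chemokine made after interferon gamma, stood at -0.37, 0.89 and -0.33 with 1332b and at -0.85, 0.57 and 0.56 with 2046. WDR33, a subunit of the mRNA polyadenylation machinery, stood at -0.12, 1.16 and 0.58 with 1332b and at -0.38, 1.62 and 0.22 with 2046. The remaining genes named at day 2 were FRG1-DT (differences of 1.27 and 1.45), CYP2D6 (1.16 and 1.71) and IGHA1, an immunoglobulin heavy chain gene (1.41 and 1.13). Features of IGHA1 and CYP2D6, and those of HSPA1A and FCGR1A below, can share signal with near-identical copies of these genes, so their values are uncertain.

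**Figure D2:**
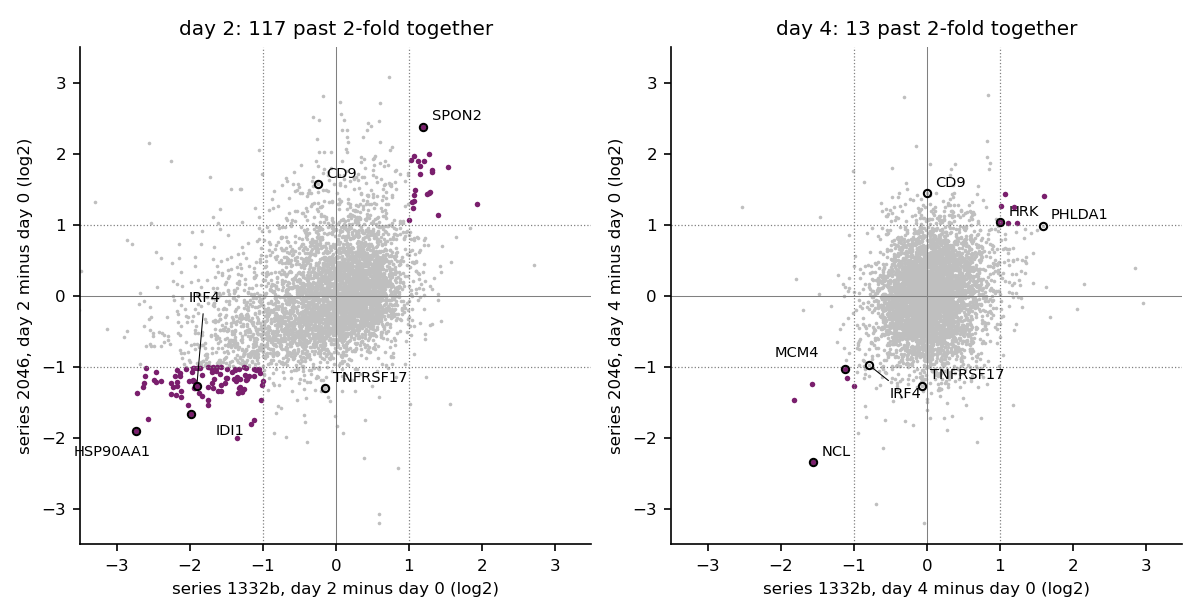
The scatter of the hairpins against each other plots, for each gene or unnamed feature, the log2 difference from day 0 with 1332b (horizontal) and with 2046 (vertical), at day 2 on the left and day 4 on the right, with dotted lines at 2-fold and dark points for those past 2-fold the same way with both. At day 2 the 117 dark points lie mostly at the lower left and at day 4 there are 13, and the axes end at 3.5, which leaves out 16 points at day 2 and 3 at day 4.

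At day 4 fewer genes were past 2-fold with both hairpins than at day 2. With 1332b, 29 genes (0.582%) were 2-fold or more lower and 72 (1.45%) higher, and with 2046, 148 (2.97%) were lower and 146 (2.93%) higher. Both hairpins shared 6 lower genes (0.120%) and 7 higher ones (0.141%). Of the 29 genes lower with 1332b, 55.2% lay below 0 with 2046, against 50.1% of all genes, and of the 148 lower with 2046, 47.3% lay below 0 with 1332b, against 49.0%. For higher genes the shares were 75% against 49.8% and 64.4% against 51.0%. The differences of the hairpins at day 4 had an r of 0.14 and a rho of 0.13 across 4982 genes. The share of lower genes among those past 2-fold with both depended on the scaling: 46.2% as centred (6 lower, 7 higher), 72.7% without centring (8 and 3) and 83.3% with centring by how often a feature was measured (5 and 1).

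Of the 6 lower genes past 2-fold with both hairpins at day 4, 3 carried a gene name: NCL, HSPA1A and MCM4. NCL, nucleolin, which works in ribosome production, had ratios of -1.11, -2.32 and -2.67 with 1332b and of -0.26, -0.75 and -2.60 with 2046. Both day 4 arrays were thus close to each other and the lowest of their series. MCM4, a subunit of the replicative helicase, was -0.22, -1.04 and -1.34 with 1332b and 0.29, 0.00 and -0.75 with 2046. HSPA1A, the inducible cytosolic HSP70, was 0.42, -0.02 and -0.67 with 1332b and -0.24, 0.68 and -1.40 with 2046, and its 2046 values were on opposite sides of day 0 at days 2 and 4. The other genes named for day 4 were past 2-fold with at most 1 hairpin. SLAMF7, a plasma cell surface receptor, had day 4 differences of -0.86 and -0.92. KDELR1, which returns chaperones to the endoplasmic reticulum, had -1.11 and -0.91, and the myosin MYO1G -0.93 and -0.98. MCM4 was the named gene nearest inside the limit, and INSIG1, at -0.96 and -1.07, was the nearest outside.

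Of the 7 higher genes past 2-fold with both at day 4, 4 were named: HRK, RMDN1, and LTF and FCGR1A, which are described below. HRK is a BH3-only activator of cell death. Its ratios were -0.19, -0.59 and 0.82 with 1332b and -0.63, 0.77 and 0.40 with 2046, so its day 2 values went opposite ways. RMDN1 had differences of 1.12 and 1.03 at day 4, but its day 2 values were -3.30 with 1332b and 1.32 with 2046. The others named for day 4 did not reach 2-fold with both. NMI, an interferon-induced protein, was -0.33, -0.26 and 0.74 with 1332b and -0.08, 0.05 and 0.72 with 2046, and only its day 4 arrays were high. TOP3A, a DNA topoisomerase, had day 4 differences of 0.74 and 0.78, and ADCY7, an adenylate cyclase, of 0.81 and 0.75. RPAP2, an RNA polymerase II associated protein, had 0.94 and 0.94.

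IRF4 was 1 of the 10 genes named for being lower in all 4 differences. Among the 4982 genes, 575 (11.5%) had all 4 differences below 0 and 633 (12.7%) had all 4 above 0, and the genes described are those first in rank by the smallest of the 4. The sizes below therefore describe the choice and test nothing. INSIG1, which holds back the sterol sensor in the endoplasmic reticulum, came first, and its ratios were -0.07, -0.96 and -1.03 with 1332b and 0.27, -0.64 and -0.80 with 2046. SQLE, squalene epoxidase of sterol synthesis, was 0.23, -1.19 and -0.53 with 1332b and 0.50, -0.20 and -0.15 with 2046. HSPA5, the main HSP70 chaperone of the endoplasmic reticulum (BiP), was 0.10, -1.25 and -0.77 with 1332b and 0.42, -0.42 and -0.48 with 2046. HSPA9, the mitochondrial HSP70, was 0.02, -1.26 and -0.83 with 1332b and 0.41, -0.54 and -0.69 with 2046. The induced ratios of INSIG1, HSPA5 and HSPA9 ran from -1.26 to -0.42, all below the control. NR4A1, an orphan nuclear receptor of the immediate early class, was 0.02, -1.83 and -0.84 with 1332b and 0.83, -0.10 and -0.16 with 2046, and its induced 2046 ratios were close to the control. NFIL3, a transcription repressor, had differences of -1.33 and -1.14 with 1332b and of -0.73 and -0.74 with 2046. The others were ELOC (elongin C), YME1L1 (a protease of the inner mitochondrial membrane) and API5 (an inhibitor of apoptosis), whose differences ran from -1.26 to -0.67.

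The 10 named higher genes of the same kind were led by PLAU, the urokinase plasminogen activator. Its ratios were -0.25, 0.63 and 0.70 with 1332b and -0.35, 0.51 and 0.73 with 2046, nearly the same on matched days. IFIT1, an interferon-induced inhibitor of viral translation, was 0.10, 0.93 and 0.92 with 1332b and -0.74, 0.20 and 0.51 with 2046. LTF, lactoferrin, was 0.34, 1.16 and 1.55 with 1332b and -0.31, 0.56 and 0.94 with 2046. PLCG2, a phospholipase of B cell receptor signalling, was -0.43, 0.30 and 0.26 with 1332b and -0.80, 0.49 and 0.63 with 2046. TNFRSF18, a receptor of the TNF family (GITR), was 0.30, 0.98 and 1.06 with 1332b and 0.08, 0.73 and 0.77 with 2046. By the choice, all 10 genes had their uninduced array below both induced arrays in both series. PHLDA1 (0.77 and 1.59 with 1332b, 1.02 and 0.99 with 2046), ITGA2, an integrin subunit (0.68 and 0.82, 1.09 and 1.96), and FCGR1A, an Fc receptor (0.68 and 1.61, 1.89 and 1.40), varied more between arrays. PTPRK and CDC42BPA completed the group. CDC42BPA started from uninduced ratios of -1.39 and -0.85, and 3 of its 4 induced ratios were still below 0.

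**Figure D3:**
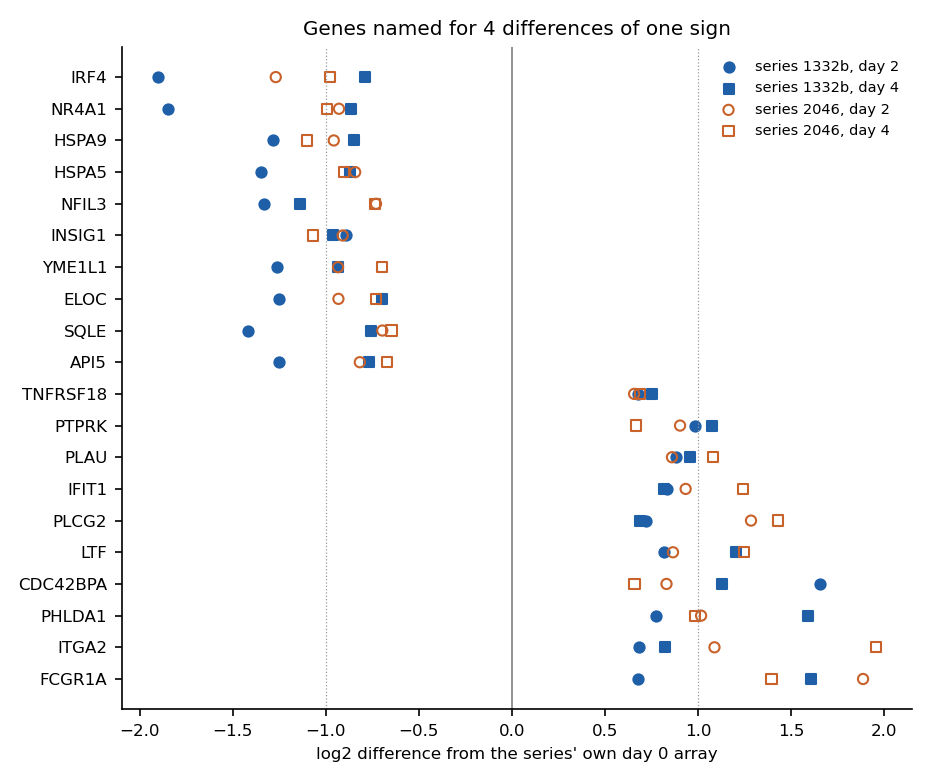
The dot plot gives, for the 20 genes named because all 4 differences had 1 sign, the log2 difference from the series' own day 0 array, with filled points for 1332b, open points for 2046, circles for day 2 and squares for day 4. IRF4 has the lowest single value, -1.90 with 1332b at day 2, and the day 2 circles of 1332b lie left of the other points for most of the lower genes.

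Genes lower with both hairpins at day 2 were also low on arrays that took no part in the choice. Series 1332, another KMS12 series, was set against its own day 0, and the arrays of the lines H929 and SKMM1 with hairpin 2046 at day 4, which have no uninduced array, were set against 0 after centring and so keep any dye bias. Of the 95 genes, 92 were measured in series 1332 at day 3 and 92 of 92 were lower there, with a median of -1.45, against 48.6% of all genes. At day 5 it was 87 of 91, and at day 7 61 of 90, against 47.5% and 48.8% of all genes. In H929, 77 of 81 and 79 of 83 had ratios below 0 on the pair of arrays, and in SKMM1 79 of 86, against 48.0% to 49.5% of all genes. HSP90AA1 was lower by 2.73 in series 1332 at day 3 and had ratios of -0.55, -1.46 and -2.08 in H929 and SKMM1. CCNC differed between lines: it stood at -2.54, -0.98 and -0.55 on days 3, 5 and 7 of series 1332, but at 0.50 and 0.51 in H929 and 0.14 in SKMM1. IRF4 stood at -1.37, -0.83 and -1.01 in series 1332, at -1.82 and -1.99 in H929 and at -2.05 in SKMM1. Of the 22 shared higher genes at day 2, 16 of 17 and 14 of 18 were above 0 in H929 and 8 of 9 in SKMM1. Among all genes 51.9% and 51.0% were above 0 in H929 and 50.5% in SKMM1. At most 3 of the 22 were measured in series 1332. The 10 genes named as lower on all 4 induced arrays were below 0 wherever measured on these arrays, apart from 2 of 9 at day 7 of series 1332. The 10 named as higher were above 0 in 6 of 6 genes measured in SKMM1 but in 3 of 8 and 3 of 7 in H929. The H929 counts were below the shares of all genes there.

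**Figure D4:**
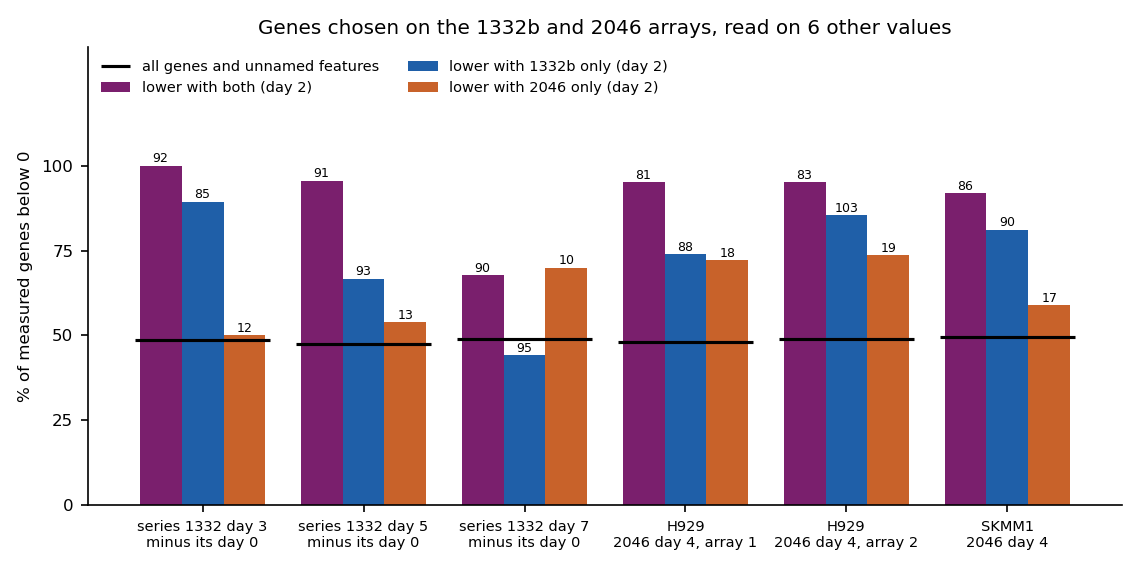
The bar chart shows, for 3 sets of genes chosen at day 2 on the arrays of 1332b and 2046, the percent of measured genes below 0 in series 1332 against its day 0 and in H929 and SKMM1 against the control, with the number measured above each bar and a line at the percent of all genes. Genes lower with both hairpins reach 100% at day 3 of series 1332, genes lower with 1332b alone 89.4% and genes lower with 2046 alone 50%.

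Few genes met the strict rule for a response to 1 hairpin, and all of them belonged to 2046. The rule asked for 2-fold or more on both days with 1 hairpin and for less than 0.25 (log2) from day 0 on both days with the other. It found 7 of the 4982 genes and unnamed features. The named ones were TNFRSF17, lower with 2046, and AFP, CD9 and LRFN3, higher with 2046. On both days, 78 (1.57%) were 2-fold or more lower and 71 (1.43%) higher with 2046, against 4 (0.0803%) and 7 (0.141%) with 1332b. Fewer genes with 1332b could therefore meet the rule. TNFRSF17 encodes the plasma cell receptor BCMA. Its ratios were -0.45, -0.61 and -0.52 with 1332b and 0.22, -1.08 and -1.05 with 2046. All 3 arrays of 1332b, the uninduced one included, were already below the control, so the hairpins differed at day 0 as well as after induction. The difference between hairpins over both days was -1.18 (SE 0.51), with a limma unadjusted p = 0.0624 and an adjusted p of 1. On the arrays outside the choice TNFRSF17 was lower throughout, at -0.94, -0.89 and -1.05 in series 1332 and at -0.67, -0.60 and -0.96 in H929 and SKMM1.

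The genes higher with 2046 alone had low uninduced ratios in that series. CD9, a tetraspanin of the cell surface, had ratios of -0.28, -0.53 and -0.29 with 1332b and of -0.92, 0.65 and 0.52 with 2046, and its 2 features differed in sign with 1332b. The difference between hairpins was 1.63 (SE 0.52), with a limma unadjusted p = 0.0231 and an adjusted p of 1. AFP, the fetal serum protein alpha-fetoprotein, was -0.03, -0.23 and 0.14 with 1332b and -0.68, 0.47 and 0.39 with 2046. LRFN3, a neuronal adhesion protein, was -0.32, -0.16 and -0.46 with 1332b and -1.05, 1.28 and 0.02 with 2046, and its day 4 ratio was that of the control. Neither CD9 nor AFP was high on every outside array on which it was measured. CD9 was 0.77 and 1.38 at days 5 and 7 of series 1332 but -0.59 and -0.09 in H929, and AFP was 0.01, -1.23 and 0.54 in H929 and SKMM1. LRFN3 was measured on none of them. Leaving the day 0 arrays out, 1 gene or unnamed feature in place of 7 met the rule.

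Taking each day by itself, a rule chosen after seeing the data, 250 genes or unnamed features met it at day 2 and 147 at day 4. At day 2 the largest group, 117, was 2-fold lower with 1332b and within 0.25 with 2046. In 99 of the 117 the 1332b ratio itself was 2-fold or more below the control. The group held 80 named genes, among them the mitotic kinase CDK1 (-2.07 with 1332b, -0.20 with 2046), the cell cycle kinase CDK6 (-1.65 and -0.04) and the mitotic kinesin KIF23 (-1.19 and 0.10). At day 4 CDK1 was lower with both hairpins (-0.61 and -0.54), CDK6 stood at 0.12 and -0.545 and KIF23 at 0.15 and -0.29. CDK1 also had ratios of -1.06 and -1.375 in H929 and -3.42 in SKMM1, where the hairpin was 2046. In series 1332 CDK1 stood at -1.09, 0.61 and 1.23 on days 3, 5 and 7. On the outside arrays, 76 of 85 genes of the group that were measured (89.4%) were lower at day 3 of series 1332. At day 5 it was 62 of 93 (66.7%), against 48.6% and 47.5% of all genes. At day 7 the group was not low, with 42 of 95 (44.2%) lower and a median of 0.07, against 48.8% of all genes. Of the same group, 65 of 88 (73.9%) and 88 of 103 (85.4%) were below 0 in H929 and 73 of 90 (81.1%) in SKMM1, where the hairpin was 2046, against 48.0% to 49.5% of all genes.

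The corresponding group for 2046 at day 2 was smaller. It held 25 genes, 17 of them named, with CENPE, a mitotic motor (-0.21 with 1332b, -1.34 with 2046), and IFIT2 (0.10 and -1.93). At days 3, 5 and 7 of series 1332, 6 of 12, 7 of 13 and 7 of 10 were lower, against 48.6%, 47.5% and 48.8% of all genes. The counts at days 3 and 5 were thus near the share of all genes. In H929 and SKMM1 13 of 18, 14 of 19 and 10 of 17 were below 0, against 48.0% to 49.5% of all genes. Higher with 2046 alone at day 2 were 87 genes, of which 27 were past 2-fold without subtracting day 0 and 53 had an uninduced ratio of -0.50 or below. BMF, a BH3-only cell death protein (0.17 with 1332b, 1.12 with 2046), was among them. Few of the 87 were measured in series 1332, and there 14 of 16, 18 of 20 and 19 of 23 were above 0 at days 3, 5 and 7, against 51.2% to 52.5% of all genes. In H929, 48 of 63 and 40 of 69 were above 0 and in SKMM1 37 of 56, against 50.5% to 51.9% of all genes. At day 4, 62 genes were lower with 2046 alone, and 7 of these were past 2-fold without subtracting day 0, while 46 had an uninduced ratio of 0.50 or more. In series 1332, 53 of 57 of them (93.0%) were lower at day 3, with a median of -1.17, 44 of 60 at day 5 and 28 of 56 at day 7. The shares of all genes were 48.6%, 47.5% and 48.8%, so the day 7 count was near that share. In H929, 46 of 53 and 49 of 59 were below 0, and in SKMM1 47 of 54, against 48.0% to 49.5% of all genes. Most of the 62 were thus also low at day 3 of series 1332, though within 0.25 of day 0 with 1332b at day 4. They included HSP90B1, an endoplasmic reticulum chaperone, whose differences were -2.19 and 0.00 with 1332b and -1.40 and -1.61 with 2046 at days 2 and 4. MTHFD2, a mitochondrial folate enzyme, had -1.95 and -0.08 with 1332b and -1.19 and -1.21 with 2046. Both mRNAs were past 2-fold lower with both hairpins at day 2 and with 2046 alone at day 4. Higher with 2046 alone at day 4 were 53 genes, 5 of them past 2-fold without subtracting day 0. Of those measured in series 1332, 12 of 13, 15 of 17 and 16 of 20 were above 0 at days 3, 5 and 7. The share of all genes there was 51.2% to 52.5%. In H929, 20 of 33 and 17 of 38 were above 0 and in SKMM1 16 of 29, against 50.5% to 51.9% of all genes. JCHAIN, which joins immunoglobulin chains, was the only named gene past 2-fold higher with 1332b and lower with 2046 at day 4: its ratios were 0.03, -1.91 and 1.21 with 1332b and 1.16, -0.14 and -0.38 with 2046.

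Gene lists of pathways and cell types were read by how many members lay on the same side of day 0 with both hairpins, beside the share among all genes: 31.7% lower and 29.1% higher with both at day 2, and 27.1% lower and 27.9% higher at day 4. No member of any list was called by limma (0% called over all genes).

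In the sterol and fatty acid list, 7 of 9 measured genes were lower with both hairpins at day 2 and 5 of 9 at day 4, and the list's medians were -0.89 and -0.60 at day 2 and -0.10 and -0.65 at day 4 with 1332b and 2046. On the 2046 arrays the median ratio of the list was 0.27 uninduced, -0.23 at day 2 and -0.20 at day 4. FADS1, a fatty acid desaturase, had ratios of -0.12, -1.21 and -0.62 with 1332b and of 0.44, -0.16 and -0.78 with 2046. SCD, the stearoyl-CoA desaturase, had 0.05, -0.22 and -0.90 with 1332b and 0.29, -0.14 and -0.45 with 2046. In both genes all 4 induced ratios were below the control. STARD4, a sterol carrier, was higher with both hairpins on both days, at 0.96 and 0.90 at day 2 and 0.61 and 0.36 at day 4. SREBF2, a transcription factor of sterol synthesis, was lower with both at day 2 (-0.18 and -0.72) and higher with both at day 4 (0.06 and 0.59). FDPS stood at -0.10 and 0.23 at day 2 and at -0.10 and 1.20 at day 4.

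In the list of MYC and growth genes, 15 of 17 were lower with both hairpins at day 4 and 8 of 17 at day 2, and none was higher with both on either day. MYC itself, the transcription factor of cell growth, had ratios of -0.20, -0.78 and -0.47 with 1332b and of 0.52, -0.27 and 0.01 with 2046. Its 4 differences ran from -0.80 to -0.27. TFRC, the transferrin receptor, had ratios of -0.19, -1.27 and -0.43 with 1332b and of 0.67, -0.21 and -0.30 with 2046. PPAT, the first enzyme of purine synthesis, had 0.20, -1.28 and 0.16 with 1332b and 0.49, -0.22 and -0.36 with 2046, so its day 4 ratio with 1332b was back near that of day 0. The list's medians at day 2 were 0.02 with 1332b and -0.53 with 2046, and the 1332b value moved to -0.13 without centring and to just below 0 with centring by how often a feature was measured. With 2046 the median ratio of these genes was -0.19 at day 2 and -0.08 at day 4 before subtracting day 0, so much of the 2046 difference lay on the uninduced array.

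Replication genes were lower with both hairpins in a larger share than among all genes. Of 21 genes of the G1/S list, 14 were lower with both at day 2 and 15 at day 4, and 4 and 0 were higher with both. The list's median differences were -0.46 with 1332b and -0.30 with 2046 at day 2. With 2046 its median ratio was 0.30 uninduced, 0.01 at day 2 and -0.06 at day 4, so the induced medians were near the control and the gap lay on the uninduced array. Centring by how often a feature was measured left a 2046 day 2 median of -0.08. PCNA, the sliding clamp of DNA polymerase, had ratios of -0.02, -1.13 and -0.07 with 1332b and of 0.87, -0.16 and 0.20 with 2046. POLA1, of the primase complex, had 0.23, -0.83 and -0.20 with 1332b and 0.30, -0.17 and -0.20 with 2046. CDC6, which loads the helicase, had 0.01, -0.93 and -0.03 with 1332b and 0.27, -0.24 and -0.25 with 2046. Of 23 genes of the G2/M list, 12 were lower with both at day 2 and 8 at day 4. TOP2A, topoisomerase II alpha, had ratios of -0.01, -1.79 and 0.00 with 1332b and of 0.83, -0.13 and -0.07 with 2046. BUB1, a spindle checkpoint kinase, had 0.10, -1.73 and 0.34 with 1332b and 0.62, -0.08 and 0.04 with 2046. Both were low on the 1332b day 2 array and near the control on the induced 2046 arrays. At day 4, 11 of the 23 G2/M genes were lower with 2046 alone and 2 with 1332b alone. Among all 4982 genes these counts were 1145 and 1089.

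Energy metabolism genes were read in 2 lists. Of 14 genes of the respiratory chain and citric acid cycle, 9 were lower with both hairpins at day 2 and 11 at day 4, with none higher with both. With 2046 the list's median ratio was 0.46 uninduced, -0.04 at day 2 and -0.01 at day 4, so there too the induced medians were near the control and the uninduced one was high. With 1332b it was 0.03, -0.32 and -0.22. CYCS, cytochrome c, had ratios of -0.07, -1.41 and -0.41 with 1332b and of 0.89, -0.48 and -0.53 with 2046, and was past 2-fold with both at day 2. Of 16 glycolysis genes, 3 were lower with both at day 2 and 12 at day 4. The median ratio of the glycolysis list with 2046 was 0.31 uninduced and 0.05 at day 4. HK2, a hexokinase, had ratios of -0.10, -0.72 and -0.85 with 1332b and of 0.18, -0.07 and -0.49 with 2046. LDHA, lactate dehydrogenase A, had -0.25, -0.61 and -0.55 with 1332b and 0.73, -0.09 and -0.02 with 2046. ALDOA, an aldolase, had differences of 0.91 and 0.55 at day 2 and of -0.53 and -0.43 at day 4, from uninduced ratios of -0.20 with 1332b and 0.00 with 2046.

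Plasma cell genes lay lower with both hairpins in 10 of 14 cases at day 2 and in 8 of 14 at day 4, and 0 and 2 were higher with both. XBP1, the transcription factor of the secretory response, had ratios of 0.06, -0.01 and -0.32 with 1332b and of 0.75, 0.15 and 0.39 with 2046, so none of its 2046 arrays was below the control. ELL2, an elongation factor of immunoglobulin processing, had ratios of -0.32, -0.88 and -0.59 with 1332b and of -0.31, -0.61 and -1.28 with 2046, and all 4 induced arrays were below both uninduced ones. SDC1 (CD138), the common myeloma marker, had differences from -0.27 to 0.24. Markers of earlier B cells went the other way: 9 of 18 were higher with both at day 2 and 10 at day 4, and 2 and 2 were lower with both. CIITA, which switches on MHC class II genes, had ratios of -0.12, 0.21 and 0.30 with 1332b and of -0.60, 0.08 and 0.20 with 2046. BCL11A had differences of 0.37 and 0.24 at day 2 and of 0.45 and 0.46 at day 4. PAX5 had 0.54 and 0.45 at day 2 and -0.03 and 0.54 at day 4. Lower with both were BLNK (-0.42 and -0.81) and CD83 (-0.03 and -0.03) at day 2. At day 4 they were MS4A1 (-0.36 and -0.23) and BLK (-0.26 and -0.41). With 2046 the median ratio of the B cell list was -0.35 uninduced, 0.08 at day 2 and 0.09 at day 4. Its induced medians were thus near the control and the uninduced one was low. The B cell median with 2046 at day 4, 0.19, was -0.05 without centring. Markers of other cells were measured in small numbers: 7 of 12 T cell, 2 of 10 myeloid and 5 of 10 erythroid and stromal genes. Of the 7 T cell markers 3 were higher with both hairpins on each day. At day 2, 0 were lower with both and 4 went opposite ways. At day 4, CD3E and CD7 were lower with both and 2 markers went opposite ways. The T cell list medians were 0.47 and -0.01 at day 2 and -0.10 and 0.34 at day 4. Of the 5 erythroid and stromal markers, 3 at day 2 and 4 at day 4 were higher with both, HBA1, HBB and PECAM1 on both days, and none was lower with both. Their medians were 0.35 and 0.14 at day 2 and 0.40 and 0.49 at day 4, beside 0.26 and 0.31, then 0.09 and 0.19, for the B cell list, and the 2046 day 2 median was -0.14 without centring. A ratio does not give a gene's level, so these values do not show whether such mRNAs were present, and their part in the results was not tested. Ratios from bulk cultures also cannot tell fewer cells of 1 kind from less RNA per cell.

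Interferon response genes were higher with both hairpins in 14 of 24 cases at day 2 and in 12 of 24 at day 4, and lower with both in 3 and 5. EIF2AK2, the kinase PKR, had ratios of 0.03, 0.55 and 0.17 with 1332b and of -0.21, 0.66 and 0.32 with 2046. TRIM22 had ratios of 0.32, 0.61 and 0.84 with 1332b and of -0.33, 0.28 and 0.59 with 2046. MX1, a GTPase against viruses, had differences of 0.09 and 0.09 at day 2 and of 0.13 and 0.42 at day 4. IFIT2 stood apart at day 2, at 0.10 with 1332b and -1.93 with 2046. The list's medians were 0.19 and 0.16 at day 2 and 0.10 and 0.28 at day 4, and the 2046 day 2 median was -0.11 without centring. All 4 differences were above 0 in 9 of the 24 list members, against 12.7% of all genes. Of these 9, IFIT1 was among the 10 higher genes described above. IRF family proteins bind GAAA repeats in promoters, and the promoter of IFIT1 is shown because it holds that motif. A pair of GAAA runs with 2 bases between them, searched on both strands in 300 bases from 250 before to 50 after the gene start (RefSeq, GRCh38), was found in 3.57% of 35116 promoters and in 13 of the 19 interferon list genes that had a promoter in the table. Among the 58 genes of the day 2 shared lower set with a promoter, 2 held it. It was in 1 of the 10 genes named as higher in all 4 differences, IFIT1. In the day 2 shared higher set 1 of 7 with a promoter held it, CXCL9. The related motif of GGAA and GAAA with 2 bases between them was in 2.82% of all promoters, in 2 of the 19 interferon genes and in 2 of the 58. Matches are in capitals, here on the reverse strand as TTTC repeats, and the IFIT1 promoter at chr10:89392373-89392672, plus strand, holds 2.
IFIT1: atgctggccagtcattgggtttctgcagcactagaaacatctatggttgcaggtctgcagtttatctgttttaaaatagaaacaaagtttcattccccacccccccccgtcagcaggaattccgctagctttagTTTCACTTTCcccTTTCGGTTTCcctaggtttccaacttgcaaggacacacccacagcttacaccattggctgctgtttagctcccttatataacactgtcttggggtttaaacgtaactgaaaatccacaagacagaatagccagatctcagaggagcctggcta

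Genes of the endoplasmic reticulum and unfolded protein list were lower with both hairpins for 7 of 15 measured genes on each day, with medians of -0.27 and -0.48 at day 2 and of -0.03 and -0.37 at day 4. The 1332b day 4 median was 0.03 with centring by how often a feature was measured. HSP90B1, the HSP90 of the endoplasmic reticulum, had ratios of -0.36, -2.56 and -0.36 with 1332b and of 0.72, -0.68 and -0.90 with 2046. SSR1, a subunit of the translocon-associated complex, had 0.11, -1.59 and 0.14 with 1332b and 0.74, -0.33 and -0.26 with 2046. CALR, calreticulin, differed from day 0 by at most 0.37 (from -0.37 to 0.02), and PDIA4 stood at -0.27 and 0.71 at day 2. The promoters of HSPA5, lower on all 4 induced arrays, and of HSP90B1, the lowest of the list with both hairpins at day 2, are shown for the endoplasmic reticulum stress element they hold. That motif, CCAAT and CCACG with 9 bases between them, was found on either strand in 0.0769% of all promoters of 300 bases, in 5 of the 14 list genes with a promoter and in 1 of the 58 genes of the day 2 shared lower set. Matches are in capitals. HSPA5 lies on the minus strand at chr9:125241294-125241593 with 1 match and HSP90B1 on the plus strand at chr12:103930160-103930459 with 2, the second match on the reverse strand. A match of letters describes the promoter and does not show that a factor was bound.
HSPA5: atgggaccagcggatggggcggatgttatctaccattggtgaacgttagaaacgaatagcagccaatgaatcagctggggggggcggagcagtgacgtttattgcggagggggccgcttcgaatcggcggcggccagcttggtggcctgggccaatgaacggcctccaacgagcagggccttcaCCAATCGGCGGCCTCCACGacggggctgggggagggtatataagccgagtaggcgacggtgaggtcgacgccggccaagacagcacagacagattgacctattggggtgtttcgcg
HSP90B1: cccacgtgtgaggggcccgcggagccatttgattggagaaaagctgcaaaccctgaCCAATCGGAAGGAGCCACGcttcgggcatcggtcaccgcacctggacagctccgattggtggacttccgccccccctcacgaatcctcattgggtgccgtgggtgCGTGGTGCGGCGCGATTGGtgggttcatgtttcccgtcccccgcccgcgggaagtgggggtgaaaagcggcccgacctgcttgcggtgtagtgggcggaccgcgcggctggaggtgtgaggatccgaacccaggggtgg

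For some lists the hairpins stood apart at day 2, and the uninduced 2046 array moved with the gap. Lower with 2046 alone among all 4982 genes were 1102 at day 2 and 1145 at day 4. Of 24 ribosomal protein genes, 14 were lower with 2046 alone at day 2 and 12 at day 4. The medians of the ribosomal protein genes at day 2 were 0.16 with 1332b and -0.56 with 2046. Their median ratio on the 2046 arrays was 0.75 uninduced and 0.20 on both induced days, so the median stayed above the control on all 3 arrays. RPS21 had ratios of 0.31, 0.49 and 0.61 with 1332b and of 1.13, 0.24 and 0.25 with 2046. Of 9 MHC class II genes, 8 were lower with 2046 alone at day 2, but at day 4 3 were lower with 2046 alone, 3 lower with both and 3 higher with both. HLA-DRA had ratios of 0.12, 0.33 and 0.31 with 1332b and of 1.03, 0.12 and 0.25 with 2046. Of 9 proteasome genes, 6 were lower with 2046 alone at day 2, with medians of 0.09 and -0.37, the first of which was -0.06 without centring. At day 4, 6 of the 9 were lower with both hairpins (66.7%, against 27.1% of all genes) and 2 with 2046 alone, with medians of -0.17 and -0.44. The difference between hairpins did not pass limma's threshold for any member.

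**Figure D5:**
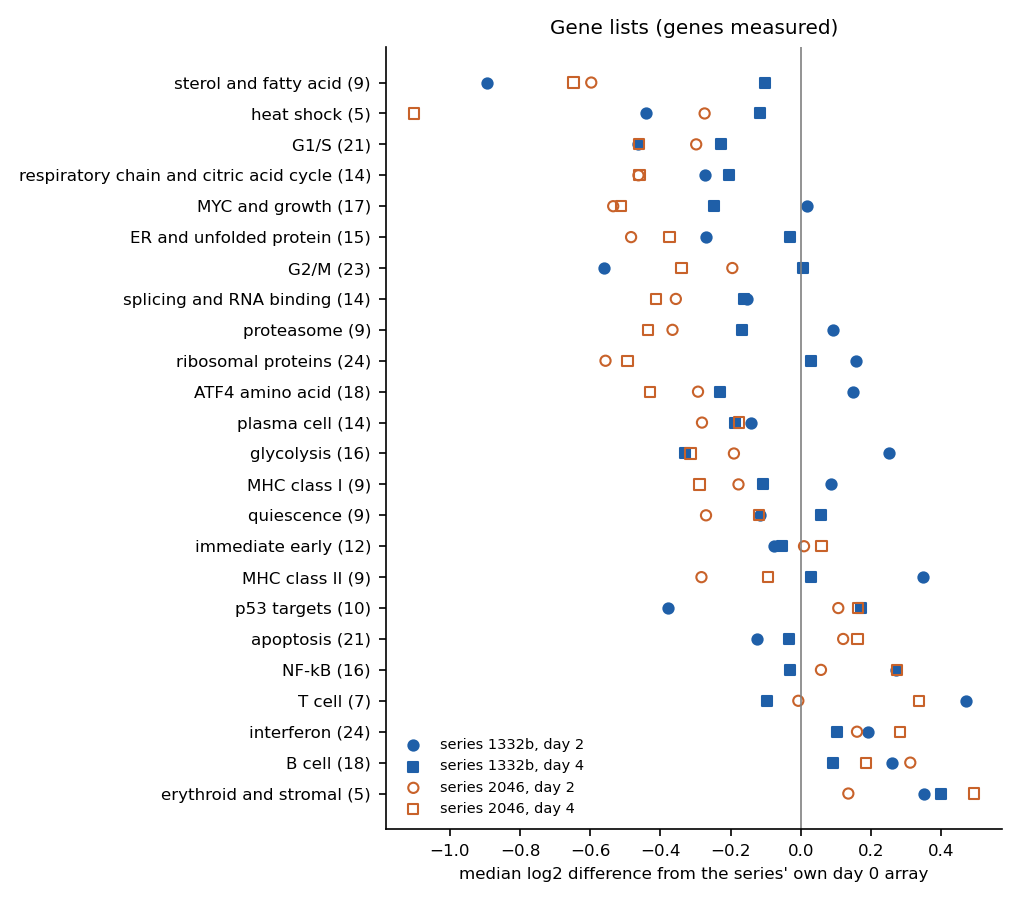
The plot of list medians gives, for the 24 lists with 5 or more measured genes, the median log2 difference from day 0 for each hairpin and day, with filled points for 1332b, open points for 2046, circles for day 2 and squares for day 4. The sterol list is lowest at day 2 with 1332b (-0.89), and the ribosomal protein list has both 1332b medians above 0 (0.16 and 0.03, the latter just below 0 without centring) and both 2046 medians below it (-0.56 and -0.49).

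In 4 of the genes with the smallest p for the difference between hairpins the uninduced ratios lay on opposite sides of 0. POFUT1, an O-fucosyltransferase of the Notch pathway, had ratios of 0.64, -0.79 and -0.03 with 1332b and of -0.86, 0.63 and -0.02 with 2046, and a difference of 2.22 (SE 0.73) with a limma unadjusted p = 0.0246. TET2, a DNA demethylase, had 0.70, 0.11 and 0.21 with 1332b and -0.84, 0.73 and 0.20 with 2046. ESYT2 had 0.38, -0.49 and 0.03 with 1332b and -0.80, 0.43 and 0.40 with 2046. CLEC2B, a lectin receptor ligand, had -0.69, -0.05 and 0.04 with 1332b and 0.47, -0.49 and -0.42 with 2046. In all 4 genes the uninduced ratios of the series lay further apart than the day 4 ratios. Their adjusted p was 1 in limma.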

How the data were processed

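The authors deposited 1 table of log2 ratios of 15246 cDNA features by 13 Lymphochip arrays, IRF4 hairpin (Cy5) over control hairpin (Cy3) by the dyes per the labels. Total RNA came from Trizol extraction and was labelled during reverse transcription, per the labels' protocols. How the authors normalized, corrected background and left spots blank, and which base the logarithm has, was not given in the sources used here. Base 2 was taken, and the values of the table run from -8.81 to 4.30 over the features and arrays used here. Intensities were not used here, and the number of arrays limits precision. No column of the table was left without a sample (0 columns).

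Features measured on all 6 arrays were kept, arrays were centred on their medians over these features, and features of a gene were averaged. Names came from the platform annotation, updated by gene identifier to RefSeq symbols: 10169 features had 1 symbol (10128 updated, 41 kept an older symbol), 4 had several and 5073 none. Tests with limma (two-sided, version 3.58.1, R 4.3.3, eBayes, Benjamini-Hochberg, threshold 0.05) fitted day with the series as a block, so that the same day of both series pairs through its own day 0. The hairpin difference was fitted on 4 means, each series uninduced and induced, with both induced days as the arrays of a mean. The code of the fit was run on simulated data with known changes. For the hairpin difference these data were less noisy than the arrays. That run therefore does not show how well such differences are found here. Calls by size used 2-fold; with 1 array a side they have no test. Python 3.11.15 with pandas 2.3.3 made counts and matplotlib 3.10.9 the plots.

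Genes were named by rule: IRF4; the first 10 lower and 10 higher with 4 differences of 1 sign, ranked by the smallest; the first 6 each way shared at day 2 and at day 4; the first 5 each way with 1 hairpin alone; those opposite on both days (none); the smallest p of each fit; and list members. List members were named for the largest shared differences or the largest difference between hairpins in their list. The hairpins, members, 27 lists and rules were chosen with earlier results of these data known.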

Additional observations from a re-analysis of the deposited data

Results flagged for a closer look

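In 24 of the 143 genes named by rule, both induced days lay on 1 side of day 0 with 1332b and on the other with 2046. Values are differences of 2046 minus those of 1332b on the log2 scale, averaged over days 2 and 4. The difference between hairpins was tested with limma and passed the threshold for none of the genes. Its adjusted p was 1 for each, so the opposite signs are a description. Among all 4982 genes, 519 (10.4%) had this pattern, and among 333 list members 28 (8.41%). Of the 228 list members not named by rule, 9 (3.95%) had it. Some genes were named because of their difference between hairpins, so the 24 of 143 follow in part from that choice.

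Above 0, so higher with 2046, were CCNB2, cyclin B2 (1.43), CD37, a B cell tetraspanin (1.57), CD9 (1.63), DHX9, an RNA helicase (1.24), ESYT2 (1.82), FDPS, of sterol synthesis (0.81), JUN (0.66), LTB (0.84), PDIA4 (0.76), POFUT1 (2.22), SYK (1.33), TET2 (1.85) and TSC22D3 (0.49). CCNB2 had differences of -1.68 and -0.16 with 1332b and of 0.51 and 0.52 with 2046. CD37 had -0.32 and -0.40 with 1332b and 1.61 and 0.80 with 2046.

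Below 0, so lower with 2046, were ASNS, asparagine synthetase (-0.98), CFLAR (-0.82), CLEC2B (-1.61), DIABLO (-0.66), HLA-DQB1 (-0.60), HLA-DRA (-1.04), ITGAM (-0.61), NME1 (-0.65), RPS21 (-1.12), RPS29 (-1.44) and SEL1L (-0.79). ASNS had differences of 0.44 and 0.36 with 1332b and of -0.62 and -0.53 with 2046, with ratios of 0.91, 0.28 and 0.38 on the 2046 arrays. RPS29 had ratios of -0.01, 0.10 and 0.73 with 1332b and of 1.11, 0.19 and 0.00 with 2046.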

How the results depend on the processing

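Leaving out 1 array at a time gave 0 to 224 calls for both days, 0 to 615 for day 2, 0 to 2 for day 4 and 0 to 5 for the hairpin difference, and an IRF4 difference of -1.42 to -1.05. For the hairpin difference neither day 0 array can be left out. Without the replicate block (the pairing of each day through its series) the calls were 0 in all 3 shared fits, as with it. Keeping features with day 0 and at least 1 induced array of each series gave 1 call at day 2. Genes past 2-fold with both hairpins at day 2 numbered 117, against 262 without centring, 203 with that looser filter, 48 with day 0 not subtracted, 571 at 1.5-fold and 3 at 3-fold. At day 4 they numbered 13, against 58 with the looser filter, 6 with centring by how often a feature was measured, 158 at 1.5-fold and 0 at 3-fold. Genes with 1 hairpin alone numbered 7, against 13 without centring, 12 with the looser filter, 1 with day 0 not subtracted, 77 at 1.5-fold and 0 at 3-fold; settings chosen after seeing the data gave 33 (within 0.5 with the other hairpin), 250 (day 2 by itself) and 147 (day 4 by itself). The cause of these shifts was not tested, apart from the changed limits and filters themselves.

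For single genes, 1853 of 1861 alternatives kept their direction, and 51 passed the threshold. Directions turned in the hairpin difference for CD27 (-0.047 to 0.60 when 1 array is left out, lowest without 1332b day 2) and CD3E (-0.56 to 0.010, highest without 1332b day 2), and for SYK (-0.0065) with the looser filter. In the shared fits they turned for RB1 (0.0097) with the looser filter, for RMDN1 at day 4 (-0.13 without 1332b day 4 and -0.058 without 2046 day 0, up to 2.27 when 1 array is left out), and for RPL37 (0.18) and U2AF1 (0.024) with series 1332 added.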

Other observations

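Regulators of cell death did not lie on 1 side as a list. Of 21 measured genes, 8 were lower and 8 higher with both hairpins at day 2, and 7 and 7 at day 4. BCL2, which blocks mitochondrial cell death, had ratios of 0.18, -1.87 and -0.10 with 1332b and of 0.78, -0.25 and 0.00 with 2046, and was past 2-fold lower with both at day 2. MCL1, a survival protein on which many myeloma cells depend, had ratios of 0.00, -1.15 and -0.30 with 1332b and of 0.25, -0.10 and 0.09 with 2046. BMF, a BH3-only protein, had ratios of 0.36, 0.53 and 1.00 with 1332b and of -0.31, 0.81 and 0.87 with 2046, and all 4 induced ratios were above both uninduced ones. TNFSF10, the death ligand TRAIL, had differences of 0.61 and 1.87 at day 2 and of 0.99 and 0.46 at day 4. TNFRSF10B, a TRAIL receptor, had 0.22 and 0.39 at day 2 and 0.34 and 0.28 at day 4.

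In the list of quiescence genes, 6 of 9 were lower with both hairpins at day 2 and 1 at day 4. RBL2, a pocket protein that holds cells out of the cycle, had ratios of -0.05, -1.45 and 0.07 with 1332b and of 0.39, -0.30 and -0.06 with 2046. KLF4, a transcription factor that slows division, was higher in all 4 differences, at 0.75 and 0.80 at day 2 and at 0.06 and 1.19 at day 4.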
